A study of Mus musculus with 12 samples.

Results

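The cytosolic ribosomal protein genes encode the protein part of the ribosome that translates nuclear mRNAs. They were taken from the gene count table by symbol, as the rows named Rpl or Rps with a number (with closely named copies such as Rpl22l1) and as Rplp0, Rplp1, Rplp2 and Rpsa. Pseudogene rows and the Rps6 kinase genes were left out. The rule gave 84 members among the 17210 genes of the table, 52 of the large and 32 of the small subunit. After the filter on low counts 81 members were tested among 11177 genes. The 3 members that did not pass were the paralogs Rpl10l, Rpl32l and Rpl39l, with at most 4, 7.10 and 0.99 counts in any library.

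The cells were G1E-ER4, a mouse erythroid progenitor line that lacks its own GATA1, the erythroid master transcription factor, and carries a hormone-switched replacement, in which GATA1 is joined to part of the estrogen receptor (GATA1-ER). β-estradiol (EST) switches this fusion on. Cells were transduced for 24 h with a retrovirus carrying an empty vector or residues 1 to 468 of SREBP2, the active fragment of the transcription factor that drives cholesterol synthesis, and then received vehicle or EST for 6 h. The 4 groups, Vector, SREBP2, Vector+EST and SREBP2+EST, held 3 libraries each. All groups share the line, the fusion and the transduction, so no group has untransduced cells. The sample protocol gives the EST dose as 500 nM and the series design as 200 nM. The labels give the strain as C57BL/6J and the cell type as embryonic stem cells. The labels do not say that the 3 libraries of a group were separate cultures. The study states independent experiments in a general way for the panels that include this RNA-seq. If the libraries were not separate cultures, p-values measure only technical spread.

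Libraries held 18700959 to 19152281 counts. Of 7 embryonic stem cell markers, 4 were in the table, the highest at 0.596 CPM (counts per 1e6 counts of the library), and none passed the filter, whereas all 10 erythroid markers were above 1 CPM in every library. Srebf2 averaged 361 ± 8.32 CPM (SD, n = 3) in Vector and 816 ± 20.1 CPM (n = 3) in SREBP2. Gata2, which active GATA1 represses, averaged 644 CPM in Vector, against 156 CPM after EST, 131 CPM after SREBP2 and 135 CPM after both. Summed CPM of 8 neuronal genes was 10.3 to 12.3 in Vector and 2.02 to 5.47 elsewhere. That of 8 fibroblast genes was 20.7 to 21.5 in Vector, 10.01 to 15.98 in SREBP2, 6.17 to 36.5 in Vector+EST, with library 5 the highest, and 23.6 to 40.5 in SREBP2+EST.

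Ribosomal proteins are made in equal numbers with the ribosomal RNAs and assembled in the nucleolus, mostly 1 copy of each per ribosome. Their mRNAs are short, abundant and stable, and most begin with a run of pyrimidines, the 5′ terminal oligopyrimidine (TOP) tract, through which mTORC1 and LARP1 control their translation. Erythroid progenitors need many ribosomes to fill with globin. Loss of 1 copy of a ribosomal protein gene such as RPS19 causes Diamond-Blackfan anaemia, a failure of red cell production, and RPS14 is the ribosomal gene lost in the 5q- syndrome.

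RefSeq promoter entries on GRCm38.p6 were found for 64 of the 84 members. A pyrimidine word (CTTTCC, its variant CTTTTC, or the longer CCTTTCT) lay within 10 bases of the annotated start, sense strand, in 18.8% of these members and in 2.06% of all genes with an entry. The looser measure of 8 or more pyrimidines in a row within 25 bases of the start held for 53.1% of members, 22.3% of all genes and 22.6% of tested genes. The sequences below are of members described later, from 60 bases before the start to 15 after it, with these words and CGGAAG or its complement in capitals. Rpl28 and Rps27 show the pyrimidine start, and in Rpl37 the capitals mark CGGAAG only. Rpl22l1 has a run of 10 pyrimidines at its start but none of the exact words, and Rps4x and Rpl7l1 have neither word nor such a run.

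Rpl28, chr7:4792905-4792979, plus strand: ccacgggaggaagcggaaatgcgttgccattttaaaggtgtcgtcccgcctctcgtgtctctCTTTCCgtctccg
Rps27, chr3:90213634-90213708, minus strand: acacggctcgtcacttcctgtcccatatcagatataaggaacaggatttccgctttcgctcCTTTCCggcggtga
Rpl37, chr15:5116553-5116627, plus strand: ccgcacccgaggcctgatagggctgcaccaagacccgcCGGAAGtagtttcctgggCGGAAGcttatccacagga
Rps4x, chrX:102189377-102189451, minus strand: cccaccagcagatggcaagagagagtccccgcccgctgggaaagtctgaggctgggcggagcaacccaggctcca
Rpl22l1, chr3:28805448-28805522, plus strand: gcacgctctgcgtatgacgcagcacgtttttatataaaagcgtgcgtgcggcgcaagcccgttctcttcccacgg
Rpl7l1, chr17:46782642-46782716, minus strand: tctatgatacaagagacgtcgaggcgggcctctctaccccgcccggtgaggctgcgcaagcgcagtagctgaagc

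Over the whole entry (250 bases before to 50 after the start, both strands), CGGAAG, the core of ETS family sites, was in 65.6% of members and 18.8% of all genes, or 36.8% of the tested genes with an entry. GCCATNTT, the core of YY1 sites, was in 20.3% of members, 6.96% of all genes and 10.8% of tested genes. AAGATGGC, which read on the other strand is 1 of the forms of GCCATNTT and so is counted within it, was in 9.38%, 3.19% and 5.75%. The GATA words AGATAA or TGATAA were in 14.1% of members, 21.0% of all genes and 13.1% of tested genes. The E-box CACGTG was in 9.38% of members, 8.09% of all genes and 11.8% of tested genes, and TCACNCCAC, the word of the sterol element, in 1.56%, 1.44% and 1.32%. Annotated starts do not always lie at the first transcribed base, so these shares describe the windows only.

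In Vector cells, member mRNAs were among the most abundant of the libraries and varied little between replicates. The median coefficient of variation within groups was 2.96% for the members and 5.08% for all tested genes. Rpsa, the small-subunit laminin receptor protein, had the highest level at 5309 ± 42.1 CPM (SD, n = 3). Per kilobase of transcript, Rpl13a was highest at 4292 CPM per kb, followed by Rplp0, the base of the ribosomal stalk, at 3450.3 CPM per kb and Rps2 at 3432 CPM per kb. The median tested member stood at 1252 CPM per kb, and 63 of the 81 lay within 2-fold of it. At the low end stood the paralogs Rpl7l1 (162 CPM per kb), Rpl22l1 (71.6 CPM per kb) and Rpl3l (0.429 CPM per kb), and the long-transcript entry Rps20 (142 CPM per kb). Lengths are medians over a gene's annotated coding transcripts, so the order per kilobase also depends on the annotation.

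Some rows do not hold all reads of their gene. The Rps6 row held 0.582% to 0.878% of the reads summed over Rps6 and the processed copy Rps6-ps4, and the Rpl34 row 3.18% to 4.41% of those of Rpl34 and Rpl34-ps1. The low values of Rps6 (13.2 CPM in Vector) and Rpl34 (18.4 CPM) are therefore no measure of these mRNAs. Rpl31 held 62.4% to 65.3% of its sum with Rpl31-ps12, whereas Rpl37 and Rps27 held at least 96.9% and 99.3% of theirs with Rpl37rt and Rps27rt. With the copies added, Rps6 averaged 1894 ± 40.0 CPM (SD, n = 3) in Vector, within the range of the other members. In the comparisons below both rows stand as members not called. With the copies added, an alternative chosen after seeing the data, Rps6 rose by 0.16 with EST and with SREBP2 (edgeR adjusted p = 0.000385 and 0.000368), and Rpl34 by 0.16 and 0.18 (edgeR adjusted p = 0.00134 and 0.000573). Members higher were then 54 with EST and 56 with SREBP2.

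The members together took 8.96%, 9.02% and 8.77% of the counts in the 3 Vector libraries, 9.15%, 9.20% and 9.62% in SREBP2, 9.54%, 9.61% and 9.75% in Vector+EST, and 9.18%, 9.63% and 9.43% in SREBP2+EST. All 9 libraries with EST, SREBP2 or both lay above all 3 Vector libraries. The mean share was 8.92 ± 0.13% (SD, n = 3) in Vector, 9.32 ± 0.25% in SREBP2, 9.64 ± 0.11% in Vector+EST and 9.42 ± 0.23% in SREBP2+EST. Relative to Vector the difference was 8.03% with EST, 4.55% with SREBP2 and 5.57% with both. With TMM scaling (trimmed mean of M values), used in the tests below, the last 2 became 8.81% and 10.01%, since TMM factors were 0.973 to 0.997 in the SREBP2 groups and 1.01 to 1.03 in the Vector groups. Shares do not tell apart a change in ribosomal protein mRNA per cell from a change in the other RNA.

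**Figure D1:**
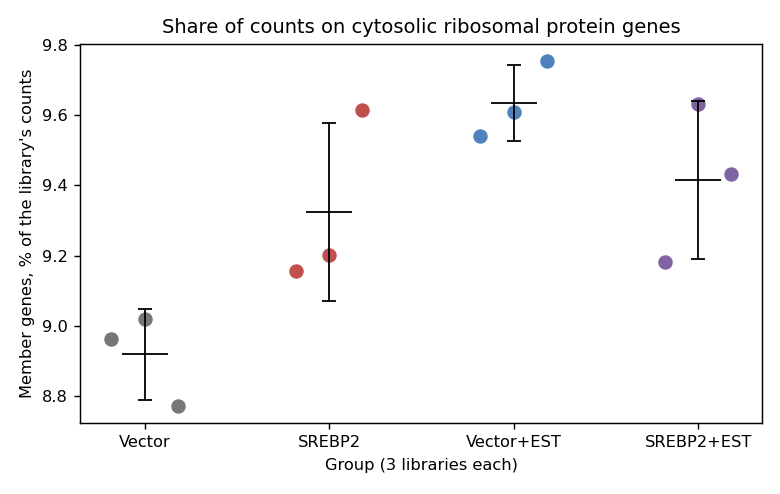
Share of each library's counts on the 84 member genes (percent, vertical axis not starting at 0) in the 4 groups; points are the 3 libraries of a group, bars the mean and SD. The 3 Vector libraries sit between 8.77% and 9.02%, below the other 9.

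The EST effect in Vector cells asks what switching on GATA1 does to these mRNAs. Most ribosomal protein mRNAs rose a little together. Of the 81 members, 52 were higher, 1 was lower (Rpl7l1) and 28 were not called at an edgeR adjusted p under 0.05. Over all tested genes 35.2% were called higher and 35.5% lower, 70.6% in all, so members were called higher more often (64.2%) although their changes were small. Their median log2 fold change was 0.11, or 7.89%, beside 0.01 for all genes. The libraries of both groups did not overlap, for 57 members with Vector+EST higher and 3 with it lower, against 37.8% and 37.9% of all genes. Both subunits moved alike, with medians of 0.11 over 49 large-subunit and 0.12 over 32 small-subunit members and 32 and 20 of them higher.

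The largest rise above a few counts was that of Rpl37, a zinc-finger protein of the large subunit. It stood at 554, 568 and 533 CPM in the 3 Vector libraries and at 672, 656 and 722 CPM in Vector+EST. All 3 treated libraries lay above all 3 controls, and the log2 fold change was 0.31 ± 0.04 (SE, n = 3 and 3, edgeR adjusted p = 6.37e-06). Rpl28, whose pyrimidine start is printed above, went from 1556, 1551 and 1499 CPM to 1860.5, 1837 and 1897 CPM, a log2 fold change of 0.28 ± 0.04 (edgeR adjusted p = 4.59e-06). Rps20, a protein of the small-subunit head, stood at 535, 527 and 513 CPM in Vector and at 593, 622 and 657 CPM with EST. Its log2 fold change was 0.25 ± 0.04 (edgeR adjusted p = 4.8e-05). Rps4x, encoded on the X chromosome, went from 1249.6, 1286 and 1255 CPM to 1548, 1459 and 1473 CPM, a log2 fold change of 0.24 ± 0.03 (edgeR adjusted p = 6.72e-06). None of these 4 genes had overlapping libraries in this comparison.

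Rpl3l, the striated-muscle paralog of Rpl3, had the largest fold change at 2.15-fold, with an SE of 0.30 on the log2 scale (n = 3 and 3, edgeR adjusted p = 0.00367), on 7.74 to 9.76 counts per library in Vector and 17.2 to 19.9 in Vector+EST. Rpl3 itself, which helps form the peptidyl transferase centre, rose by 0.24 ± 0.03 at about 1623 CPM in Vector.

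The SREBP2 effect without EST asks what the active fragment does in cells given no EST, although Gata2 was then already near its level in EST-treated cells. On the TMM scale, and against the same 3 Vector libraries as the EST effect, 54 members were higher, 2 lower (Rpl7l1 and Rps27l) and 25 not called, beside 37.7% of all genes higher, 33.8% lower and 71.5% in all. The median was 0.12, or 8.52%, beside 0.03 for all genes. Libraries did not overlap for 55 members with SREBP2 higher and 3 with it lower, against 39.3% and 35.5% of all genes. The median over the large subunit and that over the small were both 0.12.

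The largest rise among the called members was that of Rpl37, with 655, 662 and 711 CPM in SREBP2 and a log2 fold change of 0.29 ± 0.04 (edgeR adjusted p = 1.1e-05). Rpl22l1, the paralog of Rpl22, went from 37.5, 40.7 and 37.5 CPM in Vector to 43.4, 47.6 and 49.9 CPM, a log2 fold change of 0.28 ± 0.06 (edgeR adjusted p = 0.000928). Rpl22 itself had a log2 fold change of 0.07 and was not called. Rpl28 reached 1752, 1859.5 and 1943 CPM, a log2 fold change of 0.27 ± 0.04 (edgeR adjusted p = 6.62e-06). Rpl39, a small protein of the nascent chain exit tunnel, went from 178, 191 and 184 CPM to 218, 207 and 237 CPM, a log2 fold change of 0.26 ± 0.05 (edgeR adjusted p = 0.000188). Rps27, a zinc-finger protein of the small subunit, went from 499, 506 and 493 CPM to 571, 584 and 638 CPM, a log2 fold change of 0.26 ± 0.05 (edgeR adjusted p = 8.07e-05). In all 5 the SREBP2 libraries lay above the Vector libraries.

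**Figure D2:**
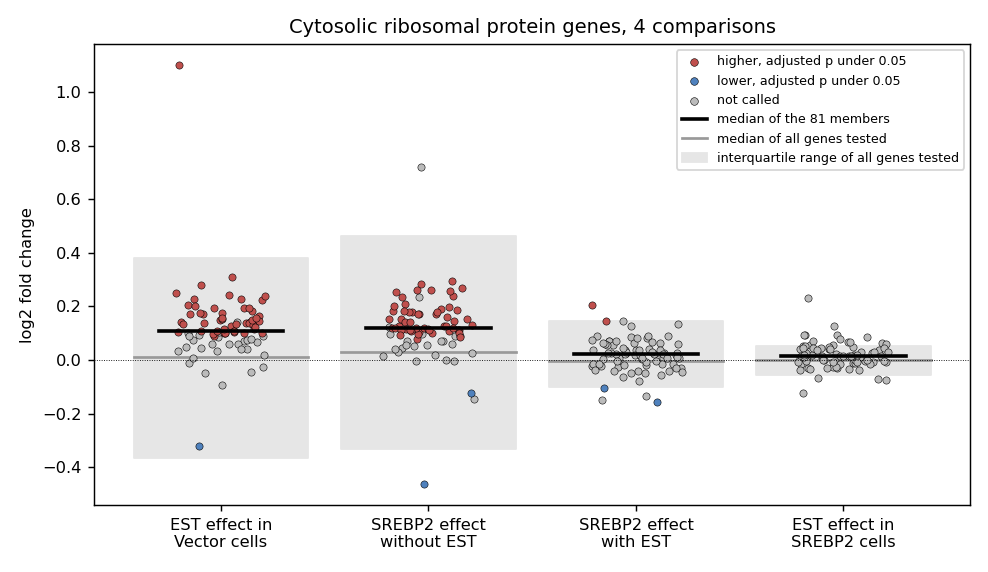
Log2 fold change (vertical axis) of the 81 tested members in 4 comparisons; each point is a gene, coloured by its call at an adjusted p under 0.05, black lines are member medians, and grey lines and boxes the median and interquartile range of all 11177 tested genes. Member medians are 0.11 and 0.12 in the first 2 comparisons and 0.02 and 0.01 in the others, and most members lie inside the interquartile range of all genes.

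How large the SREBP2 effect appears depends on where the scale is centred. On library totals alone 28 of 81 members were higher and 3 lower, with a median of 0.06. Of all 11177 genes 3773 were then higher and 4213 lower, with a median of -0.026, so the share of members higher was close to that of all genes. A correction for transcript length and GC content, fixed in the plan, left 16 higher and 11 lower with a median of 0.01, but it also moved the median of all genes from 0.03 to -0.07. Of all 11177 genes it left 3463 higher and 4632 lower, so members were called less often in both directions. The same curves with the TMM centre kept, added after these values were seen, gave 49 higher and 2 lower with a median of 0.11, beside 4214 and 3807 of all genes. Members are shorter than most mRNAs, with a median length of 712 bases against 2120 bases for all tested genes, and have 51.8% GC against 50.7%. Relative to the median of all genes in the same fit, members were higher by 0.05 to 0.11 with SREBP2 and by 0.08 to 0.12 with EST over the 25 settings, each library left out in turn included. Without Vector library 5, 28 of 81 members were higher with EST and 25 with SREBP2, beside 3405 and 3708 of 11313 genes. The share of members higher with SREBP2 was then not above that of all genes. Without Vector library 4, 32 and 31 members were higher, beside 3400 and 3721 of 11320 genes. Without Vector+EST library 5, 33 members were higher with EST, beside 3621 of 11324 genes. The summed neuronal markers, mostly through Tubb3, and Gata2 were higher in Vector than in the other group of both comparisons. Summed fibroblast markers were higher in Vector than in SREBP2 without overlap, mostly through Col1a2 (19.5 and 4.56 CPM). Pdgfrb among them went from 0.085 to 7.12 CPM. The part of these genes in the result was not tested.

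**Figure D3:**
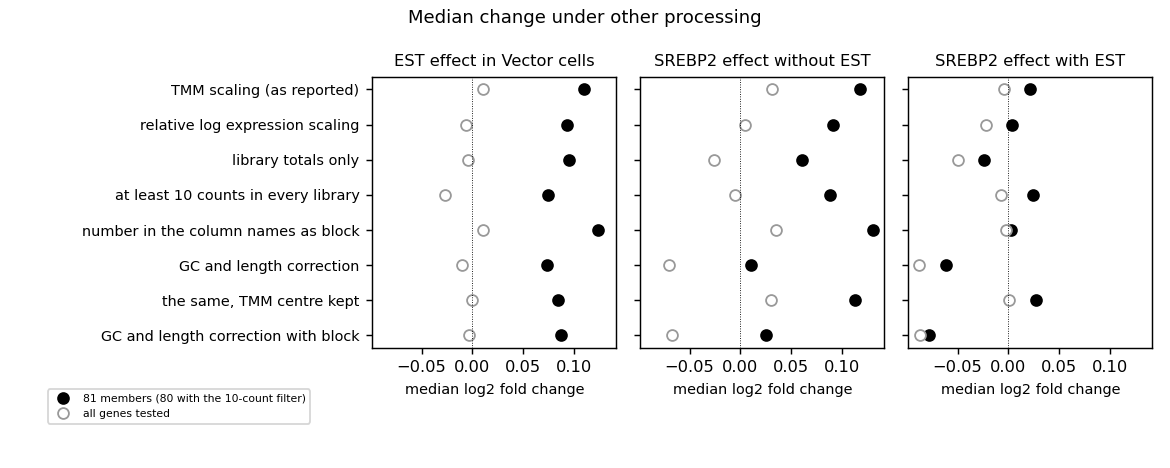
Median log2 fold change (horizontal axis) of the members (filled) and of all tested genes (open) in 3 comparisons under 8 processing settings. Filled points stay to the right of the open ones, while both shift together with the scaling, most with the length and GC correction.

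The same Vector libraries served as controls for both effects, so the values of members are set side by side without a count of shared calls. Rps27 had a log2 fold change of 0.11 with EST (-0.078 with the length and GC correction, TMM centre kept) and 0.26 with SREBP2, and Rps2 of 0.18 and 0.06. Rps4x stood at 0.24 and 0.26, Rps27a, which is made as a fusion with ubiquitin, at 0.20 and 0.25, and Rpl10a at 0.22 and 0.24.

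In EST-treated cells SREBP2 changed few members. 2 were higher (Rpl22l1 and Rps27), 2 were lower (Rpl7l1 and Rps2) and 77 were not called, beside 14.0% of all genes higher, 7.94% lower and 21.9% in all. The median was 0.02. Libraries did not overlap for 11 members with SREBP2+EST higher and 5 with it lower, against 20.5% and 17.5% of all genes. Rpl22l1 stood at 41.4, 42.5 and 46.3 CPM in Vector+EST and at 47.3, 50.3 and 52.8 CPM in SREBP2+EST, without overlap (log2 fold change 0.21 ± 0.06, edgeR adjusted p = 0.0288). Rps27 stood at 510.4, 549.8 and 554 CPM and at 569, 616 and 599 CPM (0.14 ± 0.05, edgeR adjusted p = 0.0319). Rps2, of the small-subunit mRNA entry channel, stood at 3833, 3905 and 4082 CPM and at 3489, 3739 and 3763 CPM, a log2 fold change of -0.11 ± 0.04 (edgeR adjusted p = 0.0454). Of the 4 calls, all 4 were lost when Vector+EST library 3 was left out or when the number in the column names was fitted as a block. The length and GC correction gave 29 lower members, but also 3174 lower genes and a median of -0.09 over all genes, and with the TMM centre kept 8 members were higher and 3 lower. Summed fibroblast markers were higher in SREBP2+EST than in Vector+EST libraries 1 and 3; their part in the result was not tested.

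EST added to SREBP2 cells moved no member past the threshold, nor any of the 11177 genes (0.00% called). Without SREBP2 library 1 and SREBP2+EST library 1 together, 698 genes were higher and 869 lower, and of the members 1 was higher and 0 lower. The deviations of these 2 libraries from their group means ran opposite to each other (r = -0.35), the lowest r of 13 same-numbered pairs. The reason for this was not tested. Under edgeR 4 members and 506 genes had an unadjusted p under 0.05, and DESeq2 called no member, 1 gene higher and 11 lower. Member values ran from -0.12 to 0.23 with a median of 0.01. Libraries did not overlap for 1 member with EST higher and for 0 with it lower, against 4.15% and 3.27% of all genes.

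The interaction asks whether the EST effect differed between SREBP2 and Vector cells. It was negative for 71 of 81 members, with a median of -0.10, and passed the test for 24 in this direction and for Rpl7l1 in the other, beside 29.2% and 29.8% of all genes (59.0% in all). Among the members called, the most negative values were Rpl28 at -0.29 ± 0.05 (edgeR adjusted p = 0.000202), Rpl37 at -0.26 ± 0.06 (edgeR adjusted p = 0.00151), Rps27a at -0.23 ± 0.05, Rps4x at -0.23 ± 0.05 and Rpl10a at -0.22 ± 0.04. Rps4x stood at 1488, 1470.5 and 1573 CPM in SREBP2 and at 1511, 1529 and 1533 CPM in SREBP2+EST. Its SREBP2 libraries thus already overlapped those with EST. Rpl10a, whose protein lies at the mobile L1 stalk, went from 977, 942 and 927 CPM in Vector to 1119, 1097 and 1107 CPM with EST. In SREBP2 it stood at 1089, 1117 and 1150.3 CPM, and at 1128, 1114 and 1129 CPM with both. The count of members with a negative call was 11 without Vector library 5, 12 without Vector library 4, 15 without Vector+EST library 5 and 37 without SREBP2 library 1.

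**Figure D4:**
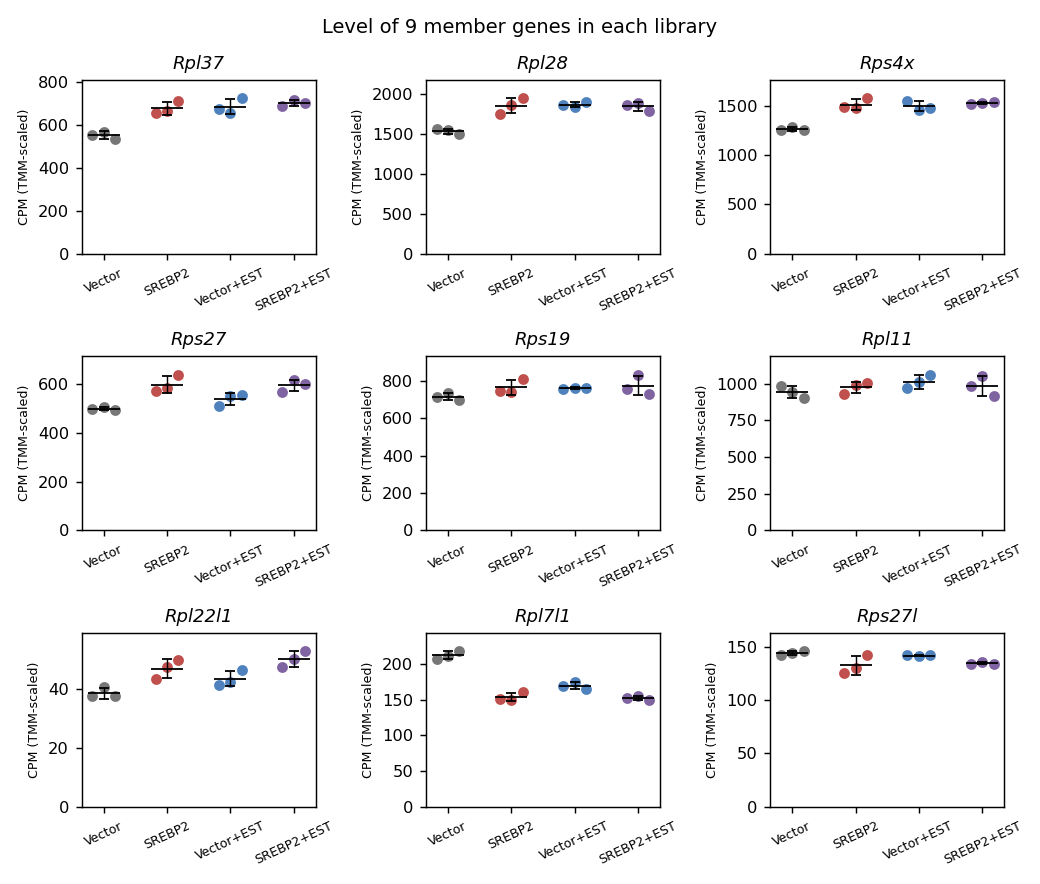
Level in TMM-scaled CPM (vertical axes from 0) of 9 members in each of the 12 libraries; points are libraries, bars the group mean and SD (n = 3). Rpl37, Rpl28 and Rps4x sit lowest in Vector, Rpl7l1 sits highest there, and Rpl11 overlaps between all 4 groups.

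Rpl7l1, a paralog of Rpl7 that works in nucleolar ribosome assembly rather than in the finished ribosome, was the clearest exception. It stood at 207, 212 and 218 CPM in Vector and fell to 169.7, 175 and 165 CPM with EST. The SREBP2 libraries held 152, 149 and 161 CPM, and those with both 152, 155 and 149.8 CPM. Every library outside Vector lay below every Vector library. The log2 fold change was -0.32 ± 0.04 with EST (edgeR adjusted p = 1.86e-06), -0.46 ± 0.04 with SREBP2 (edgeR adjusted p = 2.29e-08) and -0.16 ± 0.04 with SREBP2 on top of EST (edgeR adjusted p = 0.00916). Its interaction was positive at 0.31 ± 0.06 (edgeR adjusted p = 0.0002). Rpl7 had log2 fold changes of 0.14 and 0.11 in the first 2 comparisons, both called higher. The planned length and GC correction put the second at -0.014, with the median of all genes at -0.07.

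Among the other paralogs, Rps27l, a p53-induced copy of Rps27, stood at 142, 145 and 146 CPM in Vector and at 126, 130.1 and 142 CPM in SREBP2, so that all 3 SREBP2 libraries lay below the controls, the highest by a narrow margin (142.1 against 142.4 CPM). Its log2 fold change was -0.12 ± 0.04 with SREBP2 (edgeR adjusted p = 0.0173) and -0.02 with EST, where Vector+EST stood at 141 to 142 CPM. With the length and GC correction, TMM centre kept, the value with EST was -0.20 and called lower, and with the column-name block the call with SREBP2 was lost. Rpl10l and Rpl39l, expressed mainly in the male germ line, had 0 to 4 and 0 to 0.99 counts per library.

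Of the 20 members mutated in Diamond-Blackfan anaemia or lost in the 5q- syndrome, 13 were higher and none lower with EST, and 14 and none with SREBP2, with medians of 0.13 and 0.12. These shares were close to those of all members (64.2% and 66.7% higher). Rps19 stood at 711, 735 and 697 CPM in Vector, 753, 761 and 763 CPM in Vector+EST and 746, 737 and 810.4 CPM in SREBP2. Its log2 fold changes were 0.09 ± 0.05 (edgeR adjusted p = 0.104) and 0.10 ± 0.05 (edgeR adjusted p = 0.0691), neither called, although the libraries did not overlap with Vector in either comparison. The length and GC correction, TMM centre kept, called it in both, at 0.20 and 0.18. Rps14 had log2 fold changes of 0.14 ± 0.04 with EST, called higher (edgeR adjusted p = 0.0117), and 0.09 with SREBP2, not called. Its call with EST was lost in 4 of the other settings, with 0.089 to 0.14 when each library was left out. With SREBP2, 3 of the other settings called it higher. The largest changes in the list with EST were those of Rpl26 and Rpl31, both 0.23 ± 0.04. Rps27 at 0.26 and Rpl26 at 0.20 led with SREBP2.

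Rpl5 and Rpl11 form the 5S particle that binds and blocks MDM2, and so stabilizes p53, when ribosome assembly stalls. Rpl5 stood at 1239, 1269.6 and 1257 CPM in Vector, 1357, 1418 and 1378 CPM in Vector+EST and 1399, 1398 and 1449 CPM in SREBP2, with log2 fold changes of 0.14 ± 0.03 and 0.17 ± 0.03, both called. Rpl11 stood at 980.3, 944 and 903 CPM, at 967, 1009 and 1059 CPM and at 927, 989 and 1004 CPM in these groups. Its libraries overlapped, and its log2 fold changes of 0.10 ± 0.05 and 0.05 ± 0.05 were not called. Of 8 genes of the p53 arm, 4 were higher and 3 lower with EST, and 4 and 2 with SREBP2, beside 70.6% and 71.5% of all genes called. Zmat3 rose by 0.69 and 0.61 and Mdm2 by 0.33 and 0.24 on the log2 scale. Bbc3, the p53 target PUMA, fell by 1.65 and 1.42, and Cdkn1a, the cell cycle inhibitor p21, by 0.78 and 0.56. Trp53 itself was not called, at -0.05 and 0.04.

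The stalk proteins Rplp0, Rplp1 and Rplp2 recruit the translation factors. Rplp0 rose by 0.16 ± 0.03 with EST (edgeR adjusted p = 0.000224) and by 0.11 ± 0.03 with SREBP2 (edgeR adjusted p = 0.00348). Its call with SREBP2 was lost in 5 of the other settings, and leaving out each library gave 0.065 to 0.14. Rplp1 rose by 0.20 ± 0.04 and 0.18 ± 0.04. Rplp2 stood at 516, 532 and 502 CPM in Vector, 453, 544 and 541 CPM in Vector+EST and 541, 546 and 590.3 CPM in SREBP2. Its groups overlapped with EST, and neither -0.01 nor 0.11 was called. Rpsa rose by 0.13 ± 0.03 in both comparisons, from 5358, 5291 and 5279.7 CPM in Vector to 5797, 5780.2 and 5899.6 CPM with EST and 5525, 5860.4 and 6032 CPM with SREBP2, without overlap.

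Other genes of the same system were taken from fixed lists, each read beside the 35.2% and 35.5% of all genes called higher and lower with EST and the 37.7% and 33.8% with SREBP2. Of 4 ribosomal proteins that the symbol rule does not take, Fau and Rack1 were higher in both comparisons, none was lower, and Rpl36al and Rps27rt were not called. Of 16 other TOP mRNAs, 6 were higher and 5 lower with EST, and 8 and 5 with SREBP2. Eef2, the translocation factor, rose by 0.26 and 0.30. Npm1, a nucleolar assembly factor, fell by 0.21 and 0.45, and Eef1d, an exchange factor of elongation, by 0.21 and 0.38. Eif3h rose by 0.24 with EST.

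The chaperones that bring single ribosomal proteins to assembly moved the other way, with 6 of 7 lower and none higher in either comparison and medians of -0.52 and -0.46. Grwd1, the chaperone of Rpl3, averaged 132 ± 1.17 CPM (SD, n = 3) in Vector. EST brought it to 45.7 ± 0.378 CPM, and SREBP2 without EST to 50.4 ± 9.57 CPM. It fell by 1.53 ± 0.11 with EST and by 1.38 ± 0.11 with SREBP2 on the log2 scale. Heatr3, which imports Rpl5, fell by 0.87 and 0.96, and Pdcd2, the chaperone of Rps2, by 0.71 and 0.79. Tsr2, the chaperone of Rps26 mutated in some families with Diamond-Blackfan anaemia, averaged 41.8 ± 1.45 CPM in Vector and 29.2 ± 1.07 CPM in Vector+EST. Its log2 fold changes were -0.52 and -0.46, while its client Rps26 stood at 0.20 and 0.12, both called higher. The planned length and GC correction put the second at -0.037, with the median of all genes at -0.07. The call of Rps26 with SREBP2 was lost in 9 of the other settings, and leaving out each library gave 0.047 to 0.15.

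Of 6 tested genes that rescue or clear stalled ribosomes, 5 were lower and none higher in either comparison. Pelo, which splits stalled ribosomes with Hbs1l, fell by 0.55 in each, and Zfp598, the sensor of collided ribosomes, by 0.56 and 0.68. Hbs1l fell by 0.30 with EST, and Abce1, the recycling factor, by 0.15. Of 12 genes of mTORC1 and TOP control, 7 were lower and 2 higher with EST, and 6 and 1 with SREBP2. Akt1s1, an inhibitor within mTORC1, fell by 0.81 and 0.80, Eif4ebp1, a repressor of translation initiation, by 0.55 in each, and Larp4 by 0.63 with EST. With SREBP2 Larp4 stood at -0.09 and was not called, but 6 of the other settings called it lower. Larp1, which binds the TOP start, fell by 0.17 with SREBP2. With EST it stood at -0.09 and was not called, but 15 of the other settings called it lower.

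**Figure D5:**
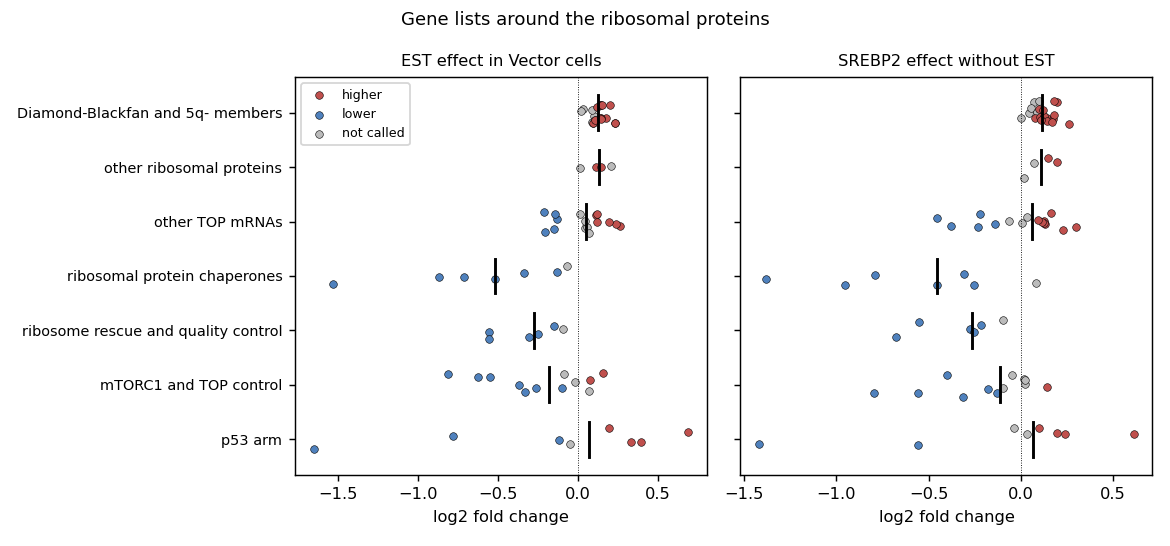
Log2 fold change (horizontal axis) of the genes of 7 lists in the first 2 comparisons (EST in Vector cells; SREBP2 without EST); points are genes coloured by their call, black bars list medians. Diamond-Blackfan and 5q- members lie at or above 0, and the chaperones have medians of -0.52 and -0.46.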

How the data were processed

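The authors deposited estimated counts per gene, not normalized, for 12 mRNA libraries (oligo(dT), single-end reads of 50 bases). The submitters' processing notes name HISAT2 2.0.4, Bowtie2 2.2.5, RSEM 1.2.12 and DESeq2 1.4.5 with GRCm38.p6, with no role or order. A second deposited table held the authors' fold changes and p-values per transcript and was not used. Counts were rounded to whole numbers, filtered with filterByExpr, scaled by TMM and tested with edgeR 4.0.16 (R 4.3.3; quasi-likelihood F-test, one mean per group, all 12 libraries), with Benjamini-Hochberg adjustment over 11177 genes. Decimal counts stood in 38 of 84 members and in 45.1% of all genes, and their origin was not tested. Totals of 18700959 to 19152281 counts put 3 counts at 0.153 to 0.163 CPM. Libraries are named by the numbers in the column names, which are not the titles' replicate numbers. Of 13 same-numbered pairs, 0 had correlated deviations over 0.1 (r from -0.35, for SREBP2 library 1 and SREBP2+EST library 1, to 0.08). The numbers were therefore not taken as pairs.

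Lengths and GC content came from GENCODE M21 for 97.5% of genes, and promoters and positions from RefSeq (GRCm38.p6). The members, lists and named genes were chosen with earlier results of these data known. Named were 15 fixed genes (Rps4l, 1 of them, not analysed here) and the 5 largest called rises and falls per comparison, with any member called in a direction held by under 20% of the calls. Lists give their 3 largest called changes. A gene of these lists is not reported here. Rpl3, Rpl7, Rpl13a, Rpl22, Rps26 and list genes beyond the 3 were named after their values were seen. Alternatives were DESeq2 1.42.0, other scalings and filters, a block, a length and GC correction, left-out libraries and added pseudogene rows. Procedures were tested on simulated data, with the passing bar reset to genes above a low level after a first failure. Most fold changes as small as those of typical members were not called there, so an uncalled member may still have changed.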

Additional observations from a re-analysis of the deposited data

Results flagged for a closer look

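The EST effect differed between SREBP2 and Vector cells, by the test of the interaction (edgeR adjusted p under 0.05), for 24 members with a more negative effect in SREBP2 cells and for 1 with a more positive one. Among the named members the values on the log2 scale were -0.29 for Rpl28, -0.26 for Rpl37, -0.23 for Rps27a, -0.23 for Rps4x, -0.22 for Rpl10a, -0.14 for Rpl5, -0.14 for Rpsa and -0.13 for Rplp0, and 0.31 for Rpl7l1. Of all genes 29.2% passed this test in the negative direction, 29.8% in the positive and 59.0% in all, so with all 12 libraries the negative share of members was close to that of all genes. Without Vector library 5, 11 members passed in the negative direction, without Vector library 4 12, without Vector+EST library 5 15 and without SREBP2 library 1 37. Beside these stood 2860 of 11313, 2883 of 11320, 3067 of 11324 and 3208 of 11328 genes. The member share was thus below that of all genes in the first 3 fits and above it in the last. Single values far from the rest of their group were not searched for in groups of 3.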

How the results depend on the processing

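Processing moved how many members passed the threshold more than it moved their level beside the median of all genes, which stayed higher in all 25 settings for EST in Vector cells (0.08 to 0.12 on the log2 scale) and for SREBP2 without EST (0.05 to 0.11). Most member changes lay within a few standard errors of 0, so an uncalled member may still have changed, and depth limits most the paralogs at a few counts.

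For EST in Vector cells, members lower were 2 with at least 10 counts in every library, 3 without SREBP2 library 1 and SREBP2+EST library 1, and 4 with the length and GC correction, alone, with the block or with the TMM centre kept. The median was 0.074 with 10 counts in every library, 0.072 without those 2 libraries, 0.073 with the correction, 0.087 with correction and block, and 0.084 with the centre kept. Leaving out each library in turn gave 28 to 55 higher, 1 to 2 lower and a median of 0.064 to 0.13. The lowest counts were 28 without Vector library 5, 32 without Vector library 4 and 33 without Vector+EST library 5. Beside these stood 3405 of 11313, 3400 of 11320 and 3621 of 11324 genes.

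For SREBP2 without EST, members higher were 28 on library totals and 16 with the correction, alone or with the block, and members lower 11 with the correction, 9 with correction and block and 1 with the block. Of all 11177 genes 3773 were higher on totals, 3463 with the correction and 3131 with correction and block. The median was 0.060 on totals, 0.011 with the correction and 0.025 with correction and block. Leaving out each library gave 25 to 61 higher, 1 to 3 lower and a median of 0.068 to 0.14, with 25 higher without Vector library 5 and 31 without Vector library 4. Beside the last 2 counts stood 3708 of 11313 and 3721 of 11320 genes.

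For SREBP2 with EST, members higher were 1 under relative log expression scaling, 0 on totals, 10 without the 2 libraries, 0 with the block, 0 with correction and block and 8 with the centre kept. Members lower were 6 on totals, 1 in the 6 libraries alone, 0 with the block, 29 with the correction and 21 with correction and block. The median reversed to -0.024 on totals, -0.062 with the correction and -0.078 with correction and block, where the median of all genes stood at -0.050, -0.088 and -0.087. Members thus stayed above all genes by 0.026, 0.026 and 0.0088. Leaving out each library gave 0 to 4 higher and 0 to 2 lower, with 0 higher without Vector+EST library 1, Vector+EST library 3 or SREBP2+EST library 2, 1 without SREBP2+EST library 5, and 4 without SREBP2 library 5, Vector+EST library 5 or SREBP2+EST library 1. Of the members lower, 0 were left without Vector+EST library 3 and 1 without Vector library 1 or 5, SREBP2 library 3, Vector+EST library 5 or SREBP2+EST library 1. EST in SREBP2 cells called 1 member higher without the 2 libraries. In the interaction, members higher were 7 with the correction, 2 with correction and block and 4 with the centre kept, and members lower 15 with 10 counts in every library and 15 with the block. Leaving out each library gave 11 to 37 lower and a median of -0.13 to -0.06, with 11 lower without Vector library 5, 12 without Vector library 4, 15 without Vector+EST library 5 and 37 without SREBP2 library 1. The counts over all genes in these 4 fits are given above.

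The numbers in the column names are shared only as numbers. Fitted as a replicate block they left 44 members higher and 1 lower with EST in Vector cells, 45 and 1 with SREBP2 without EST, and 15 lower and 1 higher in the interaction. On TMM-scaled counts the summed member level differed from Vector by 8.81% with SREBP2 and 10.01% with both. Vector+EST averaged 95186 CPM on this scale, slightly above the 94905 CPM of SREBP2. The centred version of the correction and the added pseudogene rows were chosen after seeing the data.

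Of the genes named, direction reversed for Rps27 with EST at -0.088 (correction), -0.079 (correction and block) and -0.078 (centre kept), and for Rpl22 at -0.015 and -0.0040 (correction; centre kept). Trp53 turned to 0.0062 and 0.017 under these 2. With SREBP2 the median of all genes itself moved from 0.031 to -0.070 with the correction, -0.067 with correction and block and -0.026 on totals, so the values that follow contain this common shift. The correction gave -0.022 for Rpl11, -0.032 for Rplp2, -0.014 for Rpl7, -0.069 for Rpl22, -0.037 for Rps26, -0.046 for Rpl31 and -0.035 for Trp53, and correction and block gave -0.024 for Rpl11, -0.014 for Rps14, -0.020 for Rplp2, -0.015 for Rpl7, -0.042 for Rpl22, -0.028 for Rps26, -0.032 for Rpl31 and -0.070 for Trp53. Library totals gave -0.012 for Rpl11, -0.00069 for Rps2 and -0.023 for Trp53, and the block -0.0022 for Trp53. Rpl36al with EST stood at -0.0027 under DESeq2, -0.0026 under relative log expression, -0.00037 on totals, -0.021 with 10 counts in every library, -0.023 without the 2 libraries, -0.049 with the correction, -0.016 with correction and block and -0.038 with the centre kept, and with SREBP2 at -0.0079, -0.0079, -0.039, -0.010, -0.018, -0.11 (called lower), -0.082 and -0.012 in the same order. Rps27rt, at a few counts, stood at -0.065 with the correction and -0.055 with the centre kept for EST, and for SREBP2 at -0.053 without the 2 libraries, -0.20 with the correction and -0.10 with the centre kept. Leaving out each library gave -0.071 to 0.069 for Rplp2, -0.041 to 0.031 for Rpl36al and -0.42 to 1.63 for Rps27rt with EST, and -0.022 to 0.080 for Rpl11, -0.035 to 0.11 for Trp53, -0.036 to 0.047 for Rpl36al and -0.55 to 1.49 for Rps27rt with SREBP2. Over the tallied pairs of named gene and comparison, the settings that leave out no single library gave 1242 values with the same direction and call. Another 66 values lost the call, 34 gained one and 47 reversed. All named genes were tallied only for EST in Vector cells and SREBP2 without EST, and fewer in the other comparisons. The pairs were limited to those reported here after reversed values had been seen in other pairs, so these counts do not cover every named gene in every comparison. Other causes of these changes were not tested.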
